A study of Mus musculus with 3 samples.

Results

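The genes described here carry out class I antigen presentation: B2m, H2-K1, H2-D1, H2-T23, Tap1, Tap2, Tapbp, Psmb8, Psmb9 and Nlrc5. They were chosen by symbol for their known roles, and all 10 were present in each of the 3 count matrices, out of 31744 gene symbols. Their levels were followed in each library as a whole and in neuronal, fibroblast and dividing cells, defined by the marker genes Stmn2, Col1a1 and Mki67.

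In this study, embryonic fibroblasts of the mouse were reprogrammed into motor neurons by added transcription factors, and the cultures were profiled by 10x Genomics 3′ single-cell RNA sequencing. All cells had the Hb9::GFP genotype, a reporter of the motor neuron gene Hb9, and received LNI (mLhx3-P2A-mNgn2x3HA-T2A-Isl1) together with DDRR (HRAS(G12V)-IRES-p53DD), so no library lacks the mutant HRAS or the p53 fragment. The culture at 4 dpi received supplements, was dissociated with trypsin and was sorted for cells low in CellTrace-FarRed, a dye that is diluted at each division. Both cultures at 14 dpi were dissociated with papain and DNase and sorted as Hb9::GFP-positive, and of these 1 had supplements and 1 had none. As supplements the labels name BDNF, CNTF, GDNF, FGF and RepSox. Each group is 1 library, so no difference has a replicate check, no p-value is given, and all intervals cover counting error only. Time, sort gate, dissociation and depth change together between 4 and 14 dpi and cannot be told apart.

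Class I molecules display peptides from inside the cell to CD8 T cells. The proteasome cuts proteins into peptides, and in its immunoproteasome form it carries Psmb8, Psmb9 and Psmb10 in place of the standard catalytic subunits Psmb5, Psmb6 and Psmb7. The peptides are pumped into the endoplasmic reticulum by the Tap1 and Tap2 transporter and loaded with the help of tapasin (Tapbp) onto a heavy chain (H2-K1, H2-D1 or the nonclassical H2-T23) paired with beta-2 microglobulin (B2m). Nlrc5 is a transactivator of class I genes, and interferons raise the whole set. Neurons are known for low class I levels compared with fibroblasts.

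The upstream sequences of the 4 chain genes and of Tap1 are printed because class I promoters are the textbook sites of NF-kappaB, interferon and Nlrc5 input. RefSeq promoter windows of the build GRCm38.p6 were found for 8 of the 10 genes and not for Tap2 or Nlrc5, and each window runs from 250 bases upstream. Only those 250 upstream bases of a window were searched for matches. The stretches lie at chr2:122147553-122147646 on the plus strand for B2m, chr17:34000351-34000466 on the minus strand for H2-K1, chr17:35262915-35263053 on the plus strand for H2-D1, chr17:36032741-36032761 on the minus strand for H2-T23 and chr17:34187326-34187482 on the plus strand for Tap1. Each is upstream of the annotated transcription start and is written 5′ to 3′ in the direction of the gene. Capitals mark matches, on either strand, to a kappaB motif (GGG, any 2 bases, TT, any base, CC), the core of an interferon-stimulated response element (GAANNGAAA), the X2 core (TGACG) and the Y box core (CCAAT).
B2m: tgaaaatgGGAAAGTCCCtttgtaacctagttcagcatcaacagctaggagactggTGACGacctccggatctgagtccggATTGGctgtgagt
H2-K1: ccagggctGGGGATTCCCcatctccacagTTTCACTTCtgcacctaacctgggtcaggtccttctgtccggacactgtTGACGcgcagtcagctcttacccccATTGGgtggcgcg
H2-D1: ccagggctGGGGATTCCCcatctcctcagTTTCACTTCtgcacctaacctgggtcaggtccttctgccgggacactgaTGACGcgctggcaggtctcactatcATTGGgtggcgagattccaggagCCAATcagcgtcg
H2-T23: tctaaaagCCAATcagcgacg
Tap1: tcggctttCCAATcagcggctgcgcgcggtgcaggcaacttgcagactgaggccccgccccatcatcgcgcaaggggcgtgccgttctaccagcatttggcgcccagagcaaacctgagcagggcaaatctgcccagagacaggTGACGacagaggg
H2-K1 and H2-D1 both held all 4 motifs, in the same order, and their first 116 printed bases were identical at 104 positions, or 89.66%. B2m held the kappaB, X2 and Y matches and no match to the response element core in its window. H2-T23 held only a Y match. Tap1 held the X2 and Y matches. Its full window, which runs past the start, shares 275 bases with the full window of Psmb9, which is read from the other strand with a start 226 bases away. Of the 8 windows, 3 held the kappaB motif, 2 the response element core, 5 the X2 core and 7 the Y box core. Psmb9 had the X2 and Y matches, Tapbp only the Y box core and Psmb8 none of the 4. The X2 and Y matches of Psmb9 are the same bases as those of Tap1, read from the other strand, so each is counted in both windows. Among all 27025 RefSeq windows of the same length, 4.00% held the kappaB motif, 6.34% the response element core, 17.9% the X2 core and 34.5% the Y box core. All 4 motifs stood in 9 windows, or 0.0333%. The motif letters were chosen with the B2m, H2-K1 and H2-D1 windows in view, so these counts describe the windows and give no support to anything else.

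After filtering, 4492 cells remained at 4 dpi, 2314 with supplements at 14 dpi and 3716 without them, with 12202809, 36782509 and 45855979 UMIs (unique molecular identifiers, each counting 1 captured transcript end). Median depth was 2312.5, 14380.5 and 10664 UMIs per cell. Any 2 libraries shared 3 to 5 cell barcodes. Levels are given in CPM, the UMIs of a gene as a share of all UMIs of the summed cells, on the usual CPM scale. No value is scaled to gene length, because the 3′ chemistry counts transcript ends. To compare cells of different depth, each cell was thinned to 1000 UMIs. A cell was called positive for Stmn2, Col1a1 or Mki67 when it kept a UMI of that gene and none of the other 2 genes. In that order this gave 21, 1139 and 302 cells at 4 dpi, 772, 78 and 42 with supplements at 14 dpi, and 444, 686 and 63 without supplements. In each library, independent markers summed highest in the class of that name. In the 14 dpi library with supplements, 15 other neuron markers summed to 12126 CPM in Stmn2-positive and 2747 CPM in Col1a1-positive cells, and 15 other fibroblast markers to 1107 and 17697 CPM. Another 15 genes of dividing cells summed to 5139 CPM in Mki67-positive, 452 CPM in Col1a1-positive and 70.0 CPM in Stmn2-positive cells. The Mki67-positive cells of that library also held 6776 CPM of the neuron markers. At 4 dpi the dividing cell genes summed to 3701 CPM in Mki67-positive and 1022 CPM in Col1a1-positive cells. In cells positive for none of the 3 class genes they summed to 1377 CPM. Between 59.9% and 66.2% of the thinned cells of a library were positive for none of the 3 genes, so the classes are samples and not a full division of each library.

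**Figure D1:**
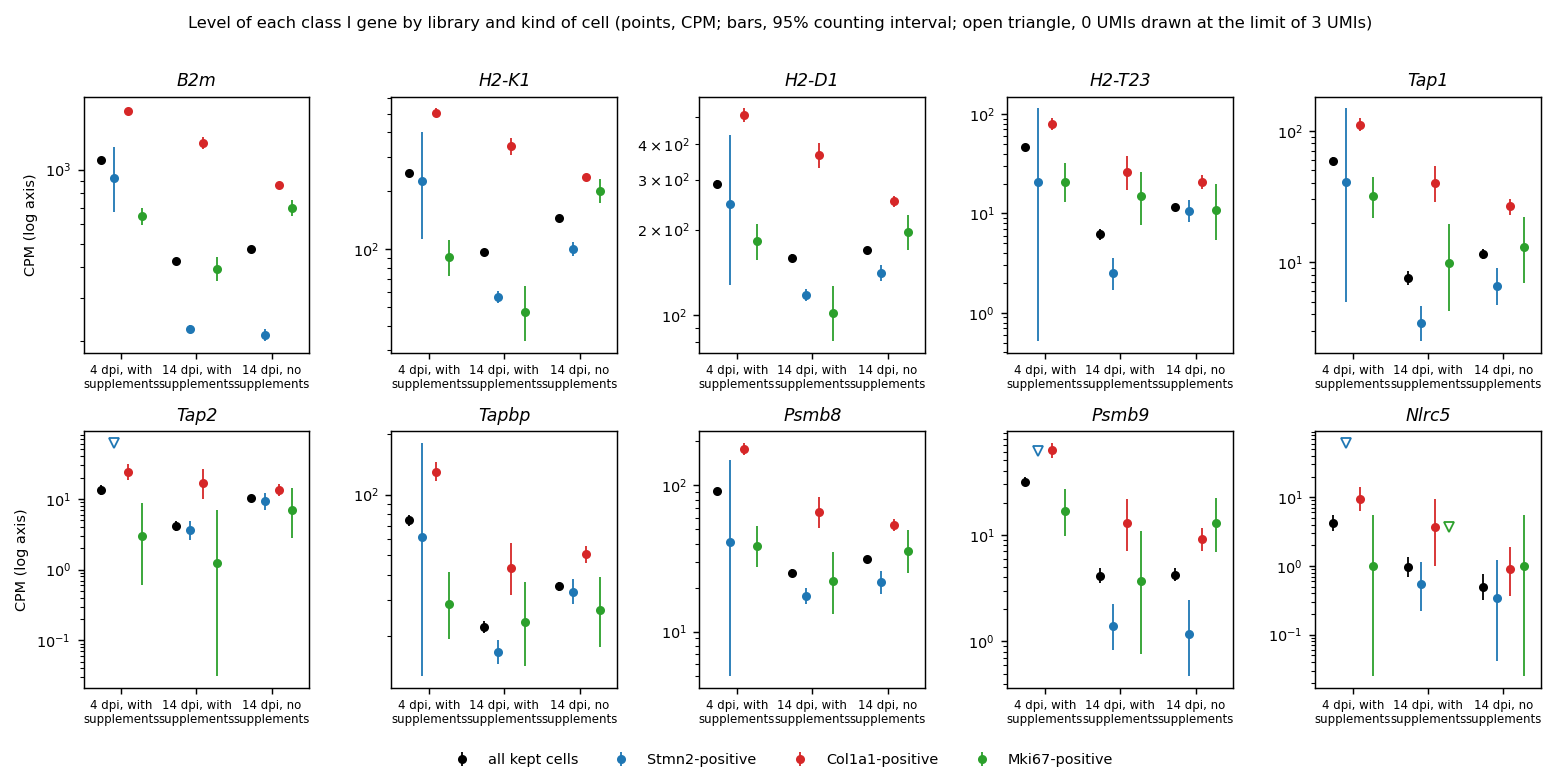
Level of each of the 10 genes (y axis, CPM on a log scale) in the 3 libraries (x axis) over all kept cells and in the 3 classes of cells; points are CPM of summed UMIs, bars 95% counting intervals, and open triangles mark 0 UMIs at the limit of 3 UMIs. For B2m, the red points of Col1a1-positive cells (1726, 1282 and 870 CPM) lie above the other points of their library.

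B2m, the invariant light chain without which heavy chains do not reach the cell surface, was the most abundant of the 10 transcripts. It stood at 1092 CPM at 4 dpi (95% counting interval 1074 to 1111), 426 CPM with supplements at 14 dpi (420 to 433) and 477 CPM without them (470 to 483). Within each library, Col1a1-positive cells held the most B2m, at 1726, 1282 and 870 CPM in that order of libraries. Stmn2-positive cells at 14 dpi held 224 CPM with supplements and 212 CPM without, a log2 difference of -0.08 (-0.18 to 0.02) between libraries. The B2m level of neuronal cells therefore did not differ between the 14 dpi cultures beyond counting error, while that of fibroblast cells was lower without supplements by a log2 ratio of -0.56 (-0.64 to -0.48). The size of the latter is not stable: the class held 78 cells with supplements, and another random draw of the thinning gave -0.27. With other processing the neuronal ratio ranged from -0.22 (classes called from unthinned counts) to 0.07 (mean of per-cell CPM).

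The classical heavy chains H2-K1 and H2-D1, which present peptides to CD8 T cells, had the same order over the libraries and differed in the size of the gap at 14 dpi. H2-D1 stood at 290 CPM at 4 dpi, 159 CPM with supplements at 14 dpi and 169 CPM without. H2-K1 stood at 246, 96.7 and 144 CPM in the same libraries. The libraries at 14 dpi thus differed little in H2-D1 (log2 0.08, 0.04 to 0.13, no supplements over with) and more in H2-K1 (log2 0.57, 0.52 to 0.63). At 4 dpi, the Col1a1-positive cells held 507 CPM of H2-D1 and 506 CPM of H2-K1. In Stmn2-positive cells with supplements at 14 dpi, H2-K1 was at 56.3 CPM and H2-D1 at 118 CPM, and without supplements they were at 100.3 and 141 CPM. H2-D1 was the higher heavy chain in neuronal cells of both 14 dpi libraries, and the intervals of the pair did not overlap in either.

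The balance of light and heavy chain transcripts also varied. B2m UMIs per UMI of H2-K1 and H2-D1 together were 1.70, 1.82 and 1.79 in Col1a1-positive cells of the 4 dpi library and the 14 dpi libraries with and without supplements. The same ratio was 1.29 in Stmn2-positive cells with supplements and 0.88 in those without. Neuronal cells of the culture without supplements were the only one of the 14 dpi class and library groups in which heavy chain transcripts outnumbered B2m transcripts. The part of free RNA in these levels was not tested.

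H2-T23, a nonclassical heavy chain (Qa-1) that engages receptors of natural killer cells, was scarcer. It stood at 46.5 CPM at 4 dpi, 6.20 CPM with supplements at 14 dpi and 11.6 CPM without. In Stmn2-positive cells at 14 dpi it was at 2.505 CPM (32 UMIs) with supplements and 10.6 CPM (63 UMIs) without. That log2 ratio of 2.09 (1.45 to 2.75) was the largest in size of any of the 10 genes between the 14 dpi libraries in neuronal cells. Of the 411 stretches of 90 bases at the 3′ end of its longest annotated transcript (GENCODE M21), 50 also occur exactly in Hook2 or Rab33b transcripts, so some of its reads may be ambiguous. None of the stretches of the other 9 genes occurs in another gene in that annotation.

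The transporter subunits differed from each other. Tap1 stood at 58.8 CPM at 4 dpi, 7.56 CPM with supplements at 14 dpi and 11.6 CPM without. Tap2 stood at 13.4, 4.13 and 10.2 CPM. Tap1 exceeded Tap2 more than 4-fold at 4 dpi, and by far less at 14 dpi. In Stmn2-positive cells at 14 dpi, Tap1 was at 3.44 and 6.59 CPM and Tap2 at 3.60 and 9.29 CPM, with and without supplements. Tapbp, which bridges the transporter and the empty heavy chain, stood at 74.5, 22.3 and 35.2 CPM in all cells and at 130, 43.5 and 50.6 CPM in Col1a1-positive cells. Its level in neuronal cells was 16.7 CPM with supplements and 33.1 CPM without, a log2 ratio of 0.99 (0.70 to 1.28).

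Of the immunoproteasome subunits, Psmb8 stood at 91.0 CPM at 4 dpi, 25.3 CPM with supplements at 14 dpi and 31.4 CPM without. Psmb9 stood at 31.7, 4.13 and 4.23 CPM. In Col1a1-positive cells, Psmb8 was at 178, 65.8 and 53.6 CPM and Psmb9 at 62.5, 13.0 and 9.10 CPM. In Stmn2-positive cells at 14 dpi, Psmb9 was at 1.41 CPM (18 UMIs) with supplements and 1.18 CPM (7 UMIs) without, and Psmb8 at 17.5 and 21.8 CPM. Psmb8 transcripts were thus well detected in neuronal cells and Psmb9 transcripts hardly at all.

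Set against the standard subunits, the immunoproteasome made up a larger share of catalytic subunit transcripts in fibroblast cells and at 4 dpi. Psmb8, Psmb9 and Psmb10 together gave 18.9% (exact binomial interval 18.3% to 19.6%) of the UMIs of all 6 catalytic subunits at 4 dpi, 6.45% (6.20% to 6.70%) with supplements at 14 dpi and 8.98% (8.66% to 9.30%) without. In Col1a1-positive cells the shares were 32.5%, 16.5% and 15.5%, and in Stmn2-positive cells at 14 dpi 5.00% and 6.14%. The pair of Psmb8 and Psmb5 was most even in Col1a1-positive cells at 4 dpi, where Psmb8 gave 43.0% (40.0% to 46.0%) of their UMIs. By contrast, Psmb9 gave 0.325% of the UMIs of Psmb9 and Psmb6 in Stmn2-positive cells with supplements. Psmb10 kept a share of 13.3% against Psmb7 in the same cells, so the 3 exchangeable pairs stood at different balances within 1 kind of cell.

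**Figure D2:**
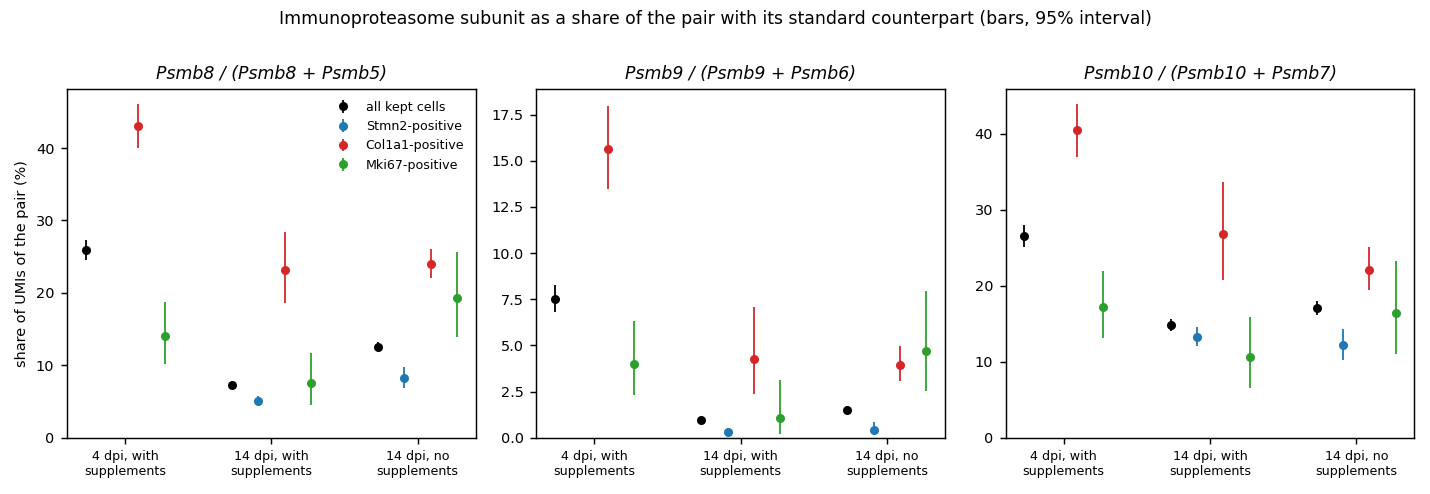
Share of UMIs from the immunoproteasome subunit (y axis, percent of the UMIs of the pair) for Psmb8 with Psmb5, Psmb9 with Psmb6 and Psmb10 with Psmb7, in the 3 libraries (x axis), for all cells and the 3 classes; bars are exact binomial 95% intervals, and the 21 Stmn2-positive cells at 4 dpi are left out. Col1a1-positive cells at 4 dpi have the largest share in each pair, 43.0%, 15.6% and 40.4%.

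Nlrc5, the class I transactivator, was close to the limit of detection. It had 52 UMIs (4.26 CPM) at 4 dpi, 36 UMIs (0.98 CPM) with supplements at 14 dpi and 23 UMIs (0.50 CPM) without. Of its 4 dpi UMIs, 25 lay in Col1a1-positive cells (9.59 CPM), against 4 UMIs in those cells with supplements at 14 dpi and 7 without. The intervals of its level at 4 dpi (3.18 to 5.59 CPM) and with supplements at 14 dpi (0.69 to 1.35 CPM) did not overlap. At this depth its ratios within classes carry wide intervals.

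Between 4 and 14 dpi, both with supplements, all 10 genes were lower at 14 dpi, 9 of them at least 2-fold, where 10.1% of 9415 genes were at least 2-fold lower and 15.4% at least 2-fold higher. Their median log2 ratio was -1.79 and that of all genes 0.11. Here and below, background shares cover genes at 10 CPM or more on either side. The counts of class I genes also include scarcer ones, such as Nlrc5 here. Tap1 (log2 -2.96, -3.16 to -2.76), Psmb9 (-2.94, -3.22 to -2.67) and H2-T23 (-2.91, -3.13 to -2.68) differed most. The smallest difference was that of H2-D1 (-0.87, -0.93 to -0.81), and B2m (-1.36) and H2-K1 (-1.35) lay between. In such sums over all cells, fewer cells of a kind and less RNA per cell cannot be told apart. The 15 fibroblast markers summed to 7289 CPM at 4 dpi and 2876 CPM with supplements at 14 dpi, and the class I ratios within Col1a1-positive cells alone follow.

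Within Col1a1-positive cells all 10 genes were again lower at 14 dpi, 6 of them at least 2-fold (background 6.06% of 8984 genes lower, 8.26% higher), with a median log2 ratio of -1.40 beside 0.04 for all genes. Psmb9 was lower by a log2 ratio of -2.27 (-3.17 to -1.48), H2-T23 by -1.61, Tapbp by -1.57 (-2.05 to -1.13), Tap1 by -1.48 and Psmb8 by -1.44. The smaller differences were those of B2m (-0.43, -0.52 to -0.34), H2-D1 (-0.47), Tap2 (-0.53) and H2-K1 (-0.58). Tap2 (-1.38 to 0.24) and Nlrc5 (-1.37, -3.35 to 0.16) had intervals that include 0. Fibroblast markers summed to 14934 CPM in this class at 4 dpi and 17697 CPM at 14 dpi, so their sum was no lower in the later cells. Stmn2-positive cells numbered 21 at 4 dpi and held 76 UMIs of the 10 genes. Their summed level was 1559 CPM (1229 to 1952), against 444 CPM (432 to 455) with supplements at 14 dpi. Tap2, Psmb9 and Nlrc5 had 0 UMIs in the 4 dpi cells and were not compared. The other 7 genes were at least 2-fold lower at 14 dpi (background 22.7% of 9742 genes lower, 8.83% higher, median of all genes -0.65). A gene entered this count only with a UMI at 4 dpi, where 1 UMI is already 20.5 CPM. For scarce genes such as H2-T23 (1 UMI) and Tap1 (2 UMIs) the direction was thus fixed in advance, and no conclusion is drawn from the count. In Mki67-positive cells 8 genes had more than 3 UMIs on at least 1 side and entered the count, and Tap2 and Nlrc5 did not. Of the 8 genes 2, Tap1 (-1.68) and Psmb9 (-2.18), were at least 2-fold lower at 14 dpi (background 7.12% of 9097 genes lower, 14.4% higher), and B2m was at -0.71 (-0.91 to -0.52).

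**Figure D3:**
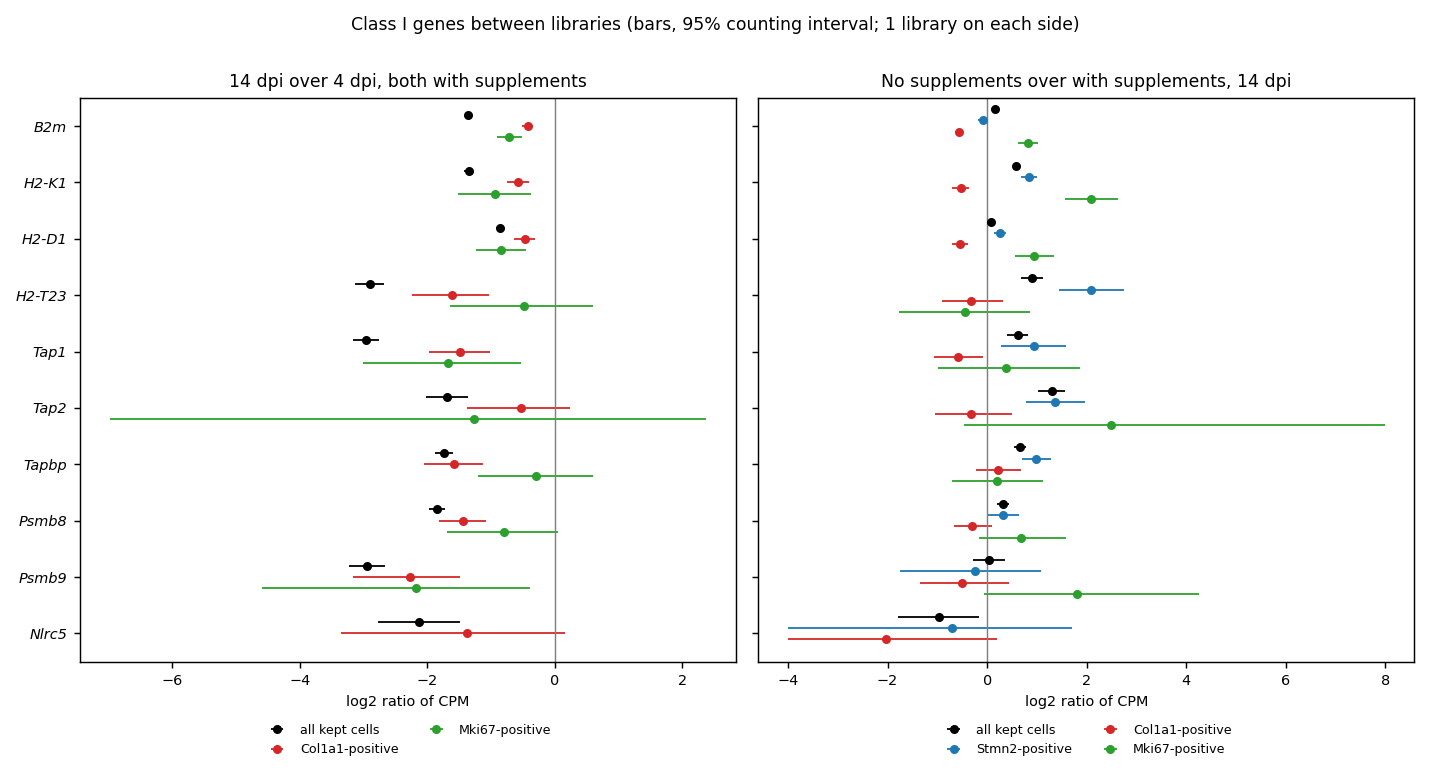
log2 ratio of CPM (x axis) of each of the 10 genes between the 14 dpi and 4 dpi libraries with supplements (left) and between the 14 dpi libraries without and with supplements (right), in all cells and by class; bars are 95% counting intervals, and Nlrc5 is not drawn for Mki67-positive cells, where a side has 0 UMIs. On the left the estimates lie below 0, and on the right those of Col1a1-positive cells lie below 0 for 9 of 10 genes and those of all cells above 0 for 9 of 10.

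Within the 14 dpi libraries, class I transcripts were lower in neuronal than in fibroblast cells. With supplements, all 10 genes were at least 2-fold lower in Stmn2-positive than in Col1a1-positive cells (background 14.5% of 9702 genes lower, 20.3% higher), with a median log2 ratio of -2.55 against 0.23 for all genes. Nlrc5 was under 10 CPM in both classes and lies outside that background. Tap1 had the largest difference, at 3.44 against 39.8 CPM (log2 -3.53, -4.17 to -2.89), followed by H2-T23 (-3.37) and Psmb9 (-3.20). H2-K1 differed by -2.59 (-2.77 to -2.41), B2m by -2.52 (-2.61 to -2.42), H2-D1 by -1.64 and Tapbp by -1.39 (-1.85 to -0.90). Summed over the 10 genes, neuronal cells held 444 CPM and fibroblast cells 2196 CPM. The intervals of the 2 classes did not overlap for 9 of the 10 genes, and for Nlrc5 they did.

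Without supplements all 10 genes were also lower in Stmn2-positive cells, but by less: 6 were at least 2-fold lower (background 12.2% of 9808 genes lower, 22.6% higher) and the median was -1.26 beside 0.27 for all genes. B2m kept a ratio of -2.04 (-2.12 to -1.95), and Psmb9 (-2.94) and Tap1 (-2.01) were the other genes past -2. H2-K1 (-1.22), H2-D1 (-0.84), H2-T23 (-0.97), Tapbp (-0.61) and Tap2 (-0.53, -1.03 to -0.04) were closer between the classes. Summed levels were 536 CPM in neuronal and 1530 CPM in fibroblast cells. In these sums the smaller gap came from both sides, with a lower level in fibroblast and a higher level in neuronal cells than with supplements. This did not hold for each gene. In neuronal cells B2m (log2 -0.08, no supplements over with), Psmb9 (-0.25) and Nlrc5 (-0.70) were not higher. In fibroblast cells Tapbp (0.22) was not lower. When classes were called from unthinned counts, 4 genes instead of 6 were at least 2-fold lower. In the 21 Stmn2-positive cells at 4 dpi, B2m stood at 923 CPM (673 to 1235) against 1726 CPM in the Col1a1-positive cells. Of 8 genes that could be compared, 6 were at least 2-fold lower (background 6.77% of 9363 genes lower, 24.7% higher). That count is not stable: it became 4 with overlapping classes or without the 5% of cells with most UMIs, and 3 with another random draw.

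Mki67-positive, dividing cells at 4 dpi likewise held less class I RNA than Col1a1-positive cells. All 10 genes were at least 2-fold lower there (background 10.4% of 8746 genes lower, 10.2% higher), with a median log2 ratio of -2.05 beside 0.12. H2-K1 stood at 90.3 CPM in dividing and 506 CPM in fibroblast cells (log2 -2.49, -2.81 to -2.18), Psmb8 at 38.7 and 178 CPM (-2.20) and B2m at 646 and 1726 CPM (-1.42, -1.54 to -1.30). Summed levels were 1059 CPM (996 to 1124) in dividing, 3333 CPM in fibroblast and 1563 CPM in cells positive for none of the 3 genes. Fibroblast markers summed to 3717 CPM in the dividing cells and 5027 CPM in the cells of no class. Their part in the class I difference was not tested.

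At 14 dpi the Mki67-positive cells were few, 42 with supplements and 63 without. With supplements, 7 genes were at least 2-fold lower than in Col1a1-positive cells (background 10.4% of 9408 genes lower, 15.8% higher). Without supplements the count was 1 (background 5.71% of 8938 genes lower, 7.06% higher), and it was 6 after another random draw of the same thinning. The value without supplements is therefore not stable enough to compare with that of the other libraries.

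**Figure D4:**
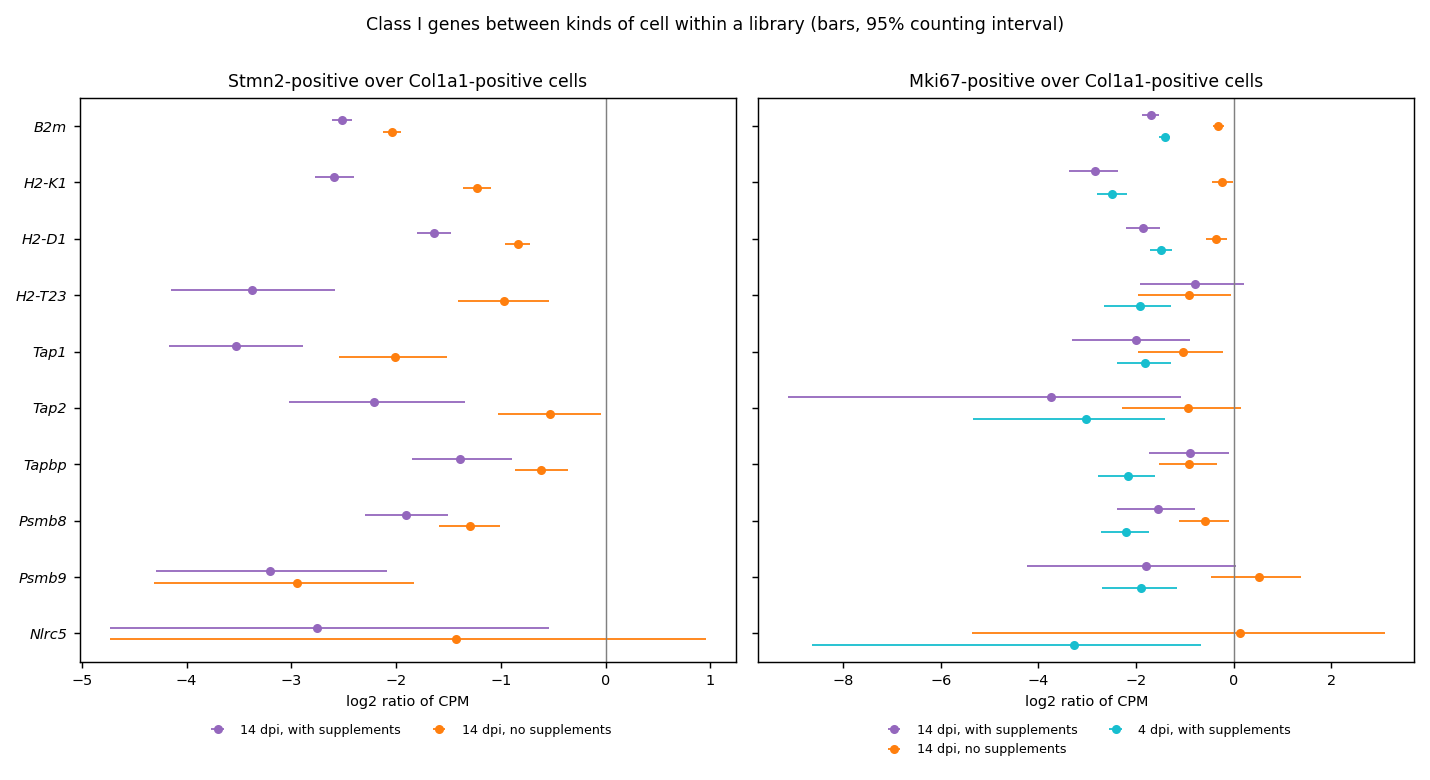
log2 ratio of CPM (x axis) of each of the 10 genes in Stmn2-positive (left) and Mki67-positive (right) over Col1a1-positive cells of the same library, with 95% counting intervals; the 21 Stmn2-positive cells at 4 dpi are not drawn, nor is Nlrc5 where a side has 0 UMIs. On the left every estimate lies below 0, and those with supplements lie below those without for all 10 genes.

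The comparison of 14 dpi cultures without and with supplements gave smaller differences, and their direction depended on the kind of cell. In all cells 9 of 10 genes were higher without supplements, but only Tap2 at least 2-fold (log2 1.30, 1.03 to 1.57, against a background of 5.18% of 9374 genes higher and 4.79% lower). The median was 0.44 beside -0.03 for all genes. H2-T23 (0.90), Tapbp (0.66), Tap1 (0.62) and H2-K1 (0.57) followed, and Psmb9 (0.03, -0.28 to 0.35) did not differ beyond counting error. Nlrc5 was lower (-0.96, -1.79 to -0.17, from 23 and 36 UMIs).

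In Stmn2-positive cells, 7 of 10 genes were higher without supplements, H2-T23 and Tap2 (log2 1.37, 0.78 to 1.96) at least 2-fold (background 7.72% of 9428 genes higher, 4.76% lower). Tap2 was under 10 CPM on both sides and lies outside that background. Tapbp (0.99), Tap1 (0.94, 0.28 to 1.59) and H2-K1 (0.83, 0.67 to 0.99) were higher by less, H2-D1 by 0.26 (0.13 to 0.38), and Psmb8 (0.31, -0.01 to 0.63) had an interval that includes 0. Col1a1 transcripts averaged 4.93 CPM in this class with supplements and 22.6 CPM without, while the 15 fibroblast markers summed to 1107 and 887 CPM. In Col1a1-positive cells the order was turned: 9 of 10 genes were lower without supplements, Nlrc5 at least 2-fold (from 7 and 4 UMIs). The background was 7.46% of 9111 genes lower and 6.62% higher. Nlrc5 was under 10 CPM on both sides and lies outside that background. The count of 9 depends on the processing. Tap2 went from -0.32 to 0.94 with another random draw. H2-T23 went from -0.32 to 0.13 when cells with a Mki67 or Top2a UMI were left out. B2m, H2-D1 and H2-K1 were lower by almost the same amount, -0.56, -0.54 (-0.70 to -0.38) and -0.53 (-0.70 to -0.37). With another random draw B2m was at -0.27 and H2-K1 at -0.21. Tapbp was the exception, at 0.22 (-0.22 to 0.68). Fibroblast markers summed to 17697 CPM in the Col1a1-positive cells with supplements and 10654 CPM in those without, and the part of this difference in the class I ratios was not tested.

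In Mki67-positive cells H2-K1 stood at 47.1 CPM with supplements and 199 CPM without (log2 2.08, 1.57 to 2.62). It was 1 of 3 genes at least 2-fold higher (background 8.91% of 9223 genes higher, 13.2% lower), and the others, Tap2 and Psmb9, had intervals that include 0. Tap2 was under 10 CPM on both sides and lies outside that background. Another random draw gave an H2-K1 ratio of 0.40 and 0 such genes. In these cells neuron markers summed to 6776 CPM with supplements and 2397 CPM without, and Col1a1 stood at 39.7 and 242 CPM. The cells of this class therefore were of different make-up in the 2 libraries, and the result is given as a value only.

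The other genes of the pathway did not all move with the 10. Of 13 other class I molecules, 9 had enough UMIs to compare between 4 and 14 dpi with supplements. Of these, 8 were at least 2-fold lower at 14 dpi. Beside this, 10.1% of genes at 10 CPM or more on either side were that much lower. Only 3 of the 13 reached 10 CPM at 4 dpi and 1 with supplements at 14 dpi, so most of the 9 lie outside that set. H2-T22 stood at 15.7 against 128 CPM (log2 -3.03, -3.17 to -2.89) and H2-Q4 at 6.09 against 48.4 CPM (-2.99). Among 12 other genes of peptide supply and loading, 5 were at least 2-fold lower, including Psmb10 (-1.21) and the chaperone calreticulin, Calr (-1.13), while the aminopeptidase gene Npepps was at 0.23. The 3 standard proteasome subunits stayed close, with Psmb5 at 0.30, Psmb6 at 0.11 and Psmb7 at -0.16.

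Interferon-stimulated genes had the same direction over time. Of 25, 22 were at least 2-fold lower at 14 dpi in all cells (median -2.21) and 15 in Col1a1-positive cells (median -1.92). The shares of all genes that much lower were 10.1% and 6.06%, and their medians 0.11 and 0.04. In all cells Ifit3, which encodes an antiviral RNA-response protein, stood at 14.0 against 374 CPM (-4.74, -4.87 to -4.61), and Gbp2 at 1.93 against 51.7 CPM (-4.74). Ifi27 was higher at 14 dpi (202 against 112 CPM, 0.84). Of 14 regulators of class I transcription, 6 were at least 2-fold lower in all cells (median -0.54, beside the same 10.1% and 0.11 for all genes), with Irf1 at 6.52 against 35.6 CPM (-2.45, -2.68 to -2.22) and Stat2 at 14.3 against 58.1 CPM (-2.02). Rfxap, a subunit of the RFX complex on the X box, was higher (0.69, 0.51 to 0.86). Of 7 interferon receptor and kinase genes, only Tyk2 was at least 2-fold lower (-1.47), and Jak1 was at 0.33.

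Between the 14 dpi cultures the lists went different ways. In all cells the 7 interferon receptor and kinase genes were all higher without supplements (median 0.43, none 2-fold), as were 10 of the 14 regulators (median 0.28), beside a median of 0.44 for the 10 class I genes and -0.03 for all genes. None of the 25 interferon-stimulated genes differed 2-fold in all cells, and their median was -0.15 without over with supplements. In Stmn2-positive cells their median was -0.24, and Isg15, a ubiquitin-like interferon response protein, was lower without supplements (109 against 269 CPM, log2 -1.30, -1.42 to -1.18), where most class I genes were higher. Rtp4 was lower too (-1.02), and Oasl2 was higher (0.57). Ifngr2, a chain of the receptor for interferon gamma, was higher in these cells (55.2 against 24.7 CPM, 1.16, 0.94 to 1.39). The 3 standard proteasome subunits were lower without supplements in all cells (Psmb5 -0.56, Psmb6 -0.58, Psmb7 -0.70). The 3 immunoproteasome subunits together were not higher, at 2823 of 45855979 UMIs without supplements and 2396 of 36782509 with them. Psmb8 was higher and Psmb10 lower (26.0 against 35.7 CPM). The larger immunoproteasome share given above thus goes with a lower level of the standard counterparts.

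In neuronal against fibroblast cells with supplements, 20 of the 25 interferon-stimulated genes were at least 2-fold lower (median -1.71), beside 14.5% of all genes and their median of 0.23. Ifitm3, a membrane protein that restricts viral entry, stood at 167 against 2544 CPM (-3.93, -4.01 to -3.84). The interferon receptor genes Ifngr1 (14.4 against 65.8 CPM, -2.19) and Ifnar2 (15.97 against 59.3 CPM, -1.89) were lower and Jak1 was even (199 and 199 CPM). The NF-kappaB genes Relb (-1.70) and Nfkb1 (-1.53) were lower and Rfxap (1.67, 0.96 to 2.49) was higher. The standard proteasome subunits were higher in neuronal cells, by 0.60 for Psmb5, 0.57 for Psmb6 and 0.67 for Psmb7, the opposite direction to Psmb8 and Psmb9.

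Per cell, class I UMIs were unevenly spread. At 1000 UMIs per cell, 29.5% of cells at 4 dpi held no UMI of the 10 genes, against 57.0% with supplements at 14 dpi and 50.9% without. By class the share without any was 9.83% in Col1a1-positive cells at 4 dpi, 28.2% and 35.6% in those at 14 dpi with and without supplements, and 67.6% and 60.8% in Stmn2-positive cells at 14 dpi. At 5000 UMIs per cell, which 2100 and 3418 cells of the 14 dpi libraries reached, the variance of B2m UMIs over cells was 5.24 and 4.33 times their mean with and without supplements. The 10% of cells with most class I UMIs held 42.8% and 39.04% of them.

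**Figure D5:**
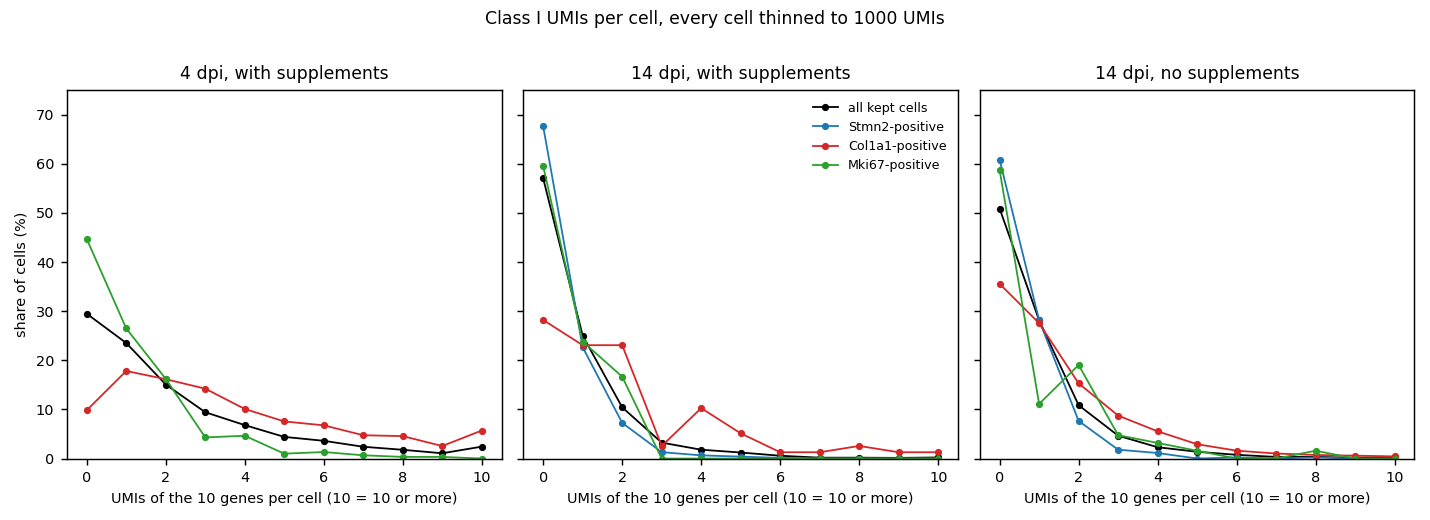
Share of cells (y axis, percent) with a given number of UMIs of the 10 genes (x axis) after thinning each cell to 1000 UMIs, by library and class; the last point counts 10 or more. The share at 0 UMIs ranges from 9.83% in Col1a1-positive cells at 4 dpi to 67.6% in Stmn2-positive cells with supplements at 14 dpi.

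B2m was present in a share of cells that moved with its level. Among thinned cells, 18.5% (15.8% to 21.4%) of Stmn2-positive and 56.4% (44.7% to 67.6%) of Col1a1-positive cells with supplements at 14 dpi had a B2m UMI. Unthinned, where the median depth was 15174.5 UMIs in the former class and 11344.5 UMIs in the latter, the shares were 69.6% and 94.9%. The deeper class thus had the lower share. No kind of cell in these libraries is known to lack B2m, so a background share from free RNA could not be measured.

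Cells with a Psmb8 UMI also held more of the other class I transcripts. At 5000 UMIs per cell with supplements at 14 dpi, 203 cells had a Psmb8 UMI and 1897 had none. H2-K1 stood at 237 CPM in the former and 86.7 CPM in the latter (log2 1.45, 1.24 to 1.66), H2-D1 at 334 and 142 CPM (1.23) and Tap1 at 22.7 and 5.80 CPM (1.97, 1.20 to 2.69). The interferon-stimulated gene Ifit3 differed by 2.05, and Psmb5 did not differ beyond counting error (0.08, -0.08 to 0.24). Col1a1 was higher (1.47) and Stmn2 lower (-0.61) in the Psmb8-positive cells, so kinds of cell are mixed in this contrast.

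Within Stmn2-positive cells and within Col1a1-positive cells without supplements or at 4 dpi, the chain genes were again higher beside Psmb8. The exception was B2m in Col1a1-positive cells with supplements, at -0.02 (-0.36 to 0.31) from 14 and 59 cells. Among Stmn2-positive cells without supplements, 45 with and 369 without a Psmb8 UMI differed by 0.91 (0.56 to 1.26) in B2m, 1.05 (0.54 to 1.54) in H2-K1 and 0.64 (0.14 to 1.11) in H2-D1, and by -0.18 (-0.66 to 0.27) in Psmb5. In Stmn2-positive cells with supplements B2m (0.90) and H2-D1 (0.98) differed, and H2-K1 (0.35, -0.49 to 1.09) had an interval that includes 0. Among Col1a1-positive cells without supplements, 140 with and 482 without a Psmb8 UMI differed by 1.15 (0.92 to 1.37) in H2-K1, 0.84 in H2-D1, 0.54 in B2m and 1.63 in H2-T23. At 4 dpi, on cells of 1000 UMIs, H2-K1 differed by 0.89 (0.64 to 1.14) within the Col1a1-positive cells. Cells of a library are not replicates, so these intervals describe the libraries.

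Over the 9 groups made by library and class, the level of each gene was compared with the mean of the other 9 on the log2(CPM + 10) scale. Pearson's r was highest for Psmb8 (0.99) and H2-D1 (0.96) and lowest for Tap2 (0.69) and Psmb9 (0.79). The groups share libraries, so r is a description. The 21 Stmn2-positive cells at 4 dpi are 1 of the 9 groups, with 76 UMIs of the 10 genes. Tap2, Psmb9 and Nlrc5 had 0 UMIs there, and r without that group was not computed. A mean of 20 CPM or more was reached by 6514 genes, class I genes included. Among these, the genes outside the 10 most like their mean were Ube2l6 (r = 0.951), Fbln2 (0.950), Usp25 (0.945), Lipa (0.945), Mndal (0.944) and Ahnak2 (0.940). Ube2l6 is the conjugating enzyme for Isg15, and Fbln2 is an extracellular matrix protein of fibroblasts.

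Immune cells, which express class I genes strongly, were looked for by 13 markers. The markers summed to 16.2 CPM at 4 dpi, 6.47 CPM with supplements at 14 dpi and 9.22 CPM without, none of the 13 reached 10 CPM over all cells of any library, and the T cell gene Cd3e had 0 UMIs in all 3. In Col1a1-positive cells, where class I was highest, these markers summed to 3.07, 4.63 and 4.55 CPM, and Ptprc, the pan-leukocyte marker, had 0 UMIs in that class in every library. Of the 198 UMIs of these markers at 4 dpi, 185 lay in cells positive for none of the 3 class genes (22.6 CPM). Those cells held 12770 of the 23780 class I UMIs of that library. At 14 dpi such cells stood at 6.93 CPM of the markers with supplements and 11.2 CPM without. Class II genes summed to 4.34 CPM at 4 dpi and to 13.2 and 10.3 CPM at 14 dpi, far below the class I genes and in the other order over time. Endothelial markers summed to 2.38, 7.01 and 2.42 CPM and Schwann cell and glial markers to 5.57, 10.8 and 7.63 CPM, at 4 dpi and at 14 dpi with and without supplements.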

How the data were processed

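The analysis used single-cell RNA sequencing of 3 mouse libraries. The deposited matrices hold UMI counts per gene and cell barcode, whole numbers with no normalization, and per the file headers they were written with Cell Ranger 6.1.1, on the build GRCm39 per the submitters' processing notes. The cell calling step and the use of intron reads are not given in the sources used here. Where features share a symbol their counts were summed.

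A cell was kept if it had 500 genes or more and no more than 20% of its UMIs in 13 mitochondrially encoded genes, which removed 110 barcodes at 4 dpi, 153 with supplements and 177 without at 14 dpi. Of the kept cells, 113, 31 and 22 had under 1000 UMIs and could not be thinned, so they entered no class. Another 109, 23 and 54 cells were positive for more than 1 class gene. No doublet caller was run, and leaving out the 5% of cells with most UMIs was an alternative. CPM have exact Poisson and log2 ratios and shares exact binomial (Clopper-Pearson) 95% intervals. Where a side had 0 UMIs, 3 UMIs were used and the ratio was read as a bound. A gene counted as different at 2-fold, if it had more than 3 UMIs on at least 1 side. Background shares cover genes at 10 CPM or more on either side. The counts of the 10 genes and of the other class I molecules have no such limit and include scarcer genes.

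With 1 library per group no test was possible. All 10 genes are named. From each other list the text names up to 2 genes with the highest and 2 with the lowest ratio at 10 CPM or more. The 10 genes, the lists and the classes were chosen with earlier results of these data known. H2-T10, Mx1 and Mx2, which the lists also held, were not found by symbol. The ratio and thinning functions were tested on simulated data. Near-identical class I genes can share reads, and the sources used here do not give the H2 haplotype of the cells. Scripts ran in Python 3.11.15 with numpy 2.4.6, scipy 1.17.1 and pandas 2.3.3.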

Additional observations from a re-analysis of the deposited data

Results flagged for a closer look

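Several genes differed between the 14 dpi cultures in opposite directions in different kinds of cell, with counting intervals on opposite sides of 0. The log2 ratio without over with supplements was -0.56 for B2m in Col1a1-positive and 0.82 in Mki67-positive cells. H2-K1 was at -0.53 in Col1a1-positive, 0.83 in Stmn2-positive and 2.08 in Mki67-positive cells. H2-D1 was at -0.54, 0.26 and 0.95 in the same order, and Tap1 at -0.59 in Col1a1-positive and 0.94 in Stmn2-positive cells. Each class has 1 library on each side, so the difference between classes was not tested. The Mki67-positive values rest on 42 and 63 cells and change with the random draw: over the alternatives they ranged from 0.06 to 0.93 for B2m, from 0.40 to 2.19 for H2-K1 and from -0.25 to 1.06 for H2-D1. The Col1a1-positive values rest on 78 cells with supplements and change in size too. Over the alternatives they ranged from -0.60 to -0.27 for B2m, -0.67 to -0.21 for H2-K1, -0.64 to -0.29 for H2-D1 and -0.67 to -0.46 for Tap1.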

How the results depend on the processing

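The ratios were recomputed under 11 alternatives: all deposited barcodes, ribosomal and mitochondrial genes left out, scaling by the median ratio, the mean of per-cell CPM, leaving out the 5% of cells with most UMIs or cells with a Mki67 or Top2a UMI, classes called from unthinned counts, classes that may overlap, thinning to 2000 UMIs, another random draw, and a 1.5-fold threshold for counts. The direction of all 10 genes was kept in every alternative run for 14 over 4 dpi in all cells and in Col1a1-positive cells, for Stmn2-positive over Col1a1-positive cells in both 14 dpi libraries, and for Mki67-positive over Col1a1-positive cells at 4 dpi. Median log2 ratios ranged from -2.07 to -1.79 and from -1.58 to -1.12 for the 2 comparisons over time, from -2.77 to -1.77 and -1.47 to -0.82 for neuronal over fibroblast cells with and without supplements, and from -2.20 to -1.46 for dividing over fibroblast cells at 4 dpi.

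The count of genes at least 2-fold higher without supplements in all cells, 1, became 2 without Mki67 or Top2a cells and 4 at 1.5-fold. At 1.5-fold the shares of all genes rose too, and in the order of the counts given here they were 13.4%, 18.7%, 16.9%, 16.8%, 14.6% and 12.9%. In Stmn2-positive cells the count of 2 became 4 with per-cell means and 5 at 1.5-fold. In Col1a1-positive cells the count of 1 lower gene became 2 from unthinned counts, with another draw and at 1.5-fold. Of 100 gene ratios recomputed for that comparison, 6 had the other sign. In Mki67-positive cells the count of 3 higher genes became 0 from unthinned counts and with another draw, and 6 at 1.5-fold. For 14 over 4 dpi in Mki67-positive cells, 2 genes were at least 2-fold lower (background 7.12%), and 4 with overlapping classes or at 2000 UMIs, 5 with another draw and 6 at 1.5-fold. For Mki67-positive over Col1a1-positive cells without supplements, the count of 1 became 3 with ribosomal and mitochondrial genes left out, with median scaling or from unthinned counts, 2 with per-cell means or without the 5% deepest cells, 0 with overlapping classes, 4 at 2000 UMIs or 1.5-fold and 6 with another draw. The ratio of Psmb9 without over with supplements in Mki67-positive cells turned from 1.80 to -0.68 from unthinned counts. That of H2-K1 for 14 over 4 dpi in Stmn2-positive cells turned from -2.004 to 0.17 at 2000 UMIs, with 15 cells at 4 dpi. The cause of these changes was not tested. Median scaling moved all ratios by over 0.1 in 7 comparisons, at most 0.30 for Stmn2-positive over Col1a1-positive cells at 4 dpi.

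No paired analysis was possible because each group holds 1 library. Depth limits what is said of Nlrc5 and of the classes with few cells. Levels compare libraries, not conditions, since no culture was repeated. The shallow 4 dpi library gives wide intervals for scarce genes.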
